A study of Mus musculus with 12 samples.

Results

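The activin system is described here through the 10 genes *Inhba*, *Inhbb*, *Acvr1*, *Acvr1b*, *Acvr1c*, *Acvr2a*, *Acvr2b*, *Fst*, *Fstl3* and *Bambi*, out of 52169 gene symbols in the deposited count table. The members are the ligand subunits, receptors and inhibitors that carry these symbols, and the set was chosen by the level of *Inhba* across the groups of this study, known from earlier results of these counts. All 10 were present, with 58 of the 189364 transcripts that carry a symbol, and each gene is represented by its transcript with the highest mean level over all libraries. RNA was sequenced from the striatum of C57BL/6J mice whose right medial forebrain bundle had received 6-hydroxydopamine (3 µg/µl in 1 µl), a toxin taken up by dopamine fibres, after desipramine (25 mg/kg) to spare noradrenergic fibres. After recovery for 2 weeks the mice were given L-DOPA (10 mg/kg) with benserazide (7.5 mg/kg), which limits the conversion of L-DOPA outside the brain, either once (acute) or daily for 9 days (chronic), and tissue was taken 1 h after the last dose. The 4 groups are therefore acute unlesioned, acute lesioned, chronic unlesioned and chronic lesioned striatum, with 3 libraries each. The unlesioned groups are the uninjected hemisphere of lesioned mice, every group had received L-DOPA, and no group without L-DOPA was analysed here. The lesion procedure is described as lowering striatal tyrosine hydroxylase staining by at least 80%, and the samples were striatal tissue punched out at 2 mm diameter per the labels, without a selection of cell types. The age of the mice is not given in the sources used here.

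Activins are secreted dimers of inhibin beta subunits, and *Inhba* encodes the subunit of activin A while *Inhbb* encodes that of activin B. The dimer binds a type II receptor (*Acvr2a* or *Acvr2b*), which recruits and phosphorylates a type I receptor (*Acvr1b*, or *Acvr1c* for activin B), and the signal passes through Smad2 and Smad3 to the nucleus. Follistatin (*Fst*) and its relative *Fstl3* bind activins outside the cell and block them, and *Bambi* encodes a pseudoreceptor without a kinase domain. In neurons *Inhba* is known as a gene switched on by synaptic activity, and activin A is known to act on dendritic spines and on neuronal survival.

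Library totals lay between 87695043 and 173116525 counts over transcripts (median 114728596), with a read counted on each transcript that it overlaps. Levels are given as CPM, the usual scaling of a count to the normalized library total, and 3 counts, the limit that a count of 0 allows, correspond to 0.0171 to 0.0347 CPM. These limits cover counting error only. As a check of the labels, the early response gene *Fosb* lay at 4.24 to 9.31 CPM in the 6 unlesioned and at 138 to 242 CPM in the 6 lesioned libraries. Spiny neuron marker genes summed to 981 to 1565 CPM in all 12 libraries. Replicate 2 of the chronic unlesioned group held choroid plexus RNA, with a marker sum of 467.5 CPM against 0.57 to 3.13 CPM in the other libraries. Cortical glutamatergic neuron markers varied within every group, from 2.03 to 42.0 CPM. The part of these differences in the results was not tested.

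*Inhba* lies on the plus strand of mouse chromosome 13. Its leading transcript, NM_008380, spans chr13:16106308-16119044 of mm9 in 3 exons with a summed length of 1529 bases, and the coding sequence starts in the second exon at 16109129 and ends with the stop codon at 16118960 to 16118962. A longer model, AK134991, begins 2624 bases further upstream at 16103684 and has 5 exons and 1957 bases. Both upstream windows are shown because the 2 models place the start of the most changed member at different sites, and the letters TATAAA are in capitals. The window before the start of the longer model is from RefSeq, GRCm38.p6 chr13:16011601-16011850, plus strand, and is identical to mm9 chr13:16103434-16103683. The window before NM_008380 is mm9 chr13:16106058-16106283, plus strand, and ends where an exon of the longer model begins.
*Inhba*, before AK134991: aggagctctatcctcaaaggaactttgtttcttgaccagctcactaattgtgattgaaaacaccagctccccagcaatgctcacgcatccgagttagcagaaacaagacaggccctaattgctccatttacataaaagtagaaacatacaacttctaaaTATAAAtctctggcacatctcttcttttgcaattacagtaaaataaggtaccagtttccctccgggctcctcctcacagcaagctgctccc
*Inhba*, before NM_008380: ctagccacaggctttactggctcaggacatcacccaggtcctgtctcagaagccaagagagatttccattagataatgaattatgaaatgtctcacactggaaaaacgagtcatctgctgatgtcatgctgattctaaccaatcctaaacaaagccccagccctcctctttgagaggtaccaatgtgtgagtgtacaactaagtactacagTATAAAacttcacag
TATAAA stands 39 bases before the NM_008380 start and 91 bases before the AK134991 start. Searched on both strands (reverse complement TTTATA), these letters occur in the 250 bases upstream of 12.4% of the 32851 promoters in the RefSeq table. Neither window holds TGACGTCA, the palindromic cyclic AMP response element, which occurs in 1.55% of promoters, nor TGACTCA or its reverse complement TGAGTCA, an AP-1 site, which occurs in 4.46%. The table holds 8 of the 10 members, not *Fst* or *Bambi*, and none of the 8 had either of the latter motifs in its window, while *Fstl3* shared TATAAA with *Inhba*. A match of letters describes the window and is not evidence of binding.

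**Figure D1:**
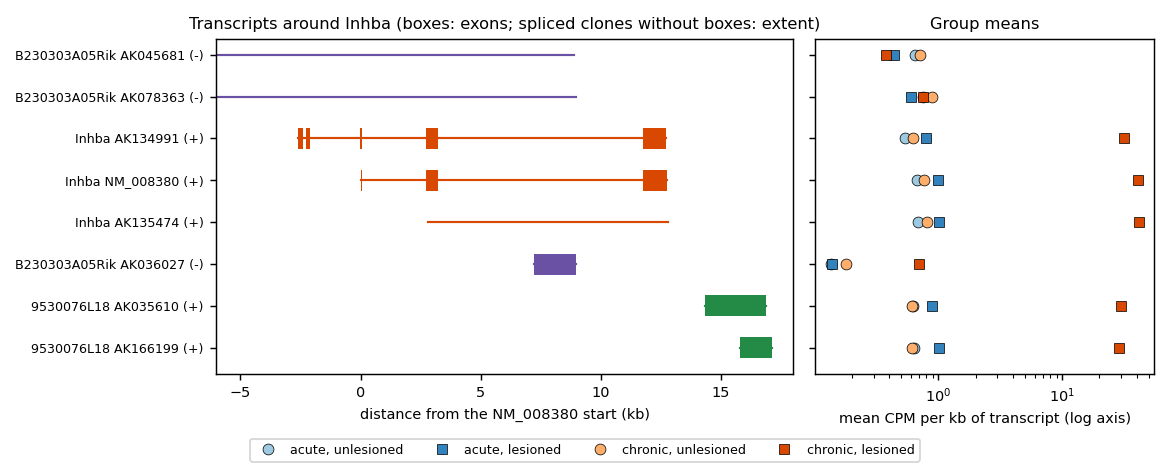
Transcripts of *Inhba* and its neighbours drawn to scale by distance from the NM_008380 start (left, kb), and the mean level of each transcript in the 4 groups in CPM per kb of transcript (right, log axis, n = 3 libraries per point). The 3 *Inhba* and both 9530076L18 transcripts of the chronic lesioned group lie between 28.8 and 41.7 CPM per kb, while AK036027, inside the *Inhba* intron, reaches 0.696.

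The reads counted on *Inhba* lay almost entirely on the part that both models share. In the chronic lesioned group, AK134991 had 5691, 7468 and 5807 counts and NM_008380 had 5742, 7519 and 5836, although the former is longer. At the read density of NM_008380, its extra length would have added 1607, 2105 and 1634 counts. In the other 9 libraries the longer model differed from the shorter by -1 to 9 counts, against 33.3 to 65.8 at equal density. The additional upstream exons thus contributed few counts in any library, and the position of the start within the shared first exon is not resolved by counts per transcript.

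Transcripts of B230303A05Rik, on the minus strand, overlap the *Inhba* interval, and the sources used here do not say whether reads were counted by strand. The only one with a known exon structure there, AK036027 (chr13:16113513-16115252, a single exon), lies within the second intron of *Inhba* and shares no base with its exons. It had 19 to 45 counts in 9 libraries and 105, 156 and 109 counts in the chronic lesioned libraries. Its log2 fold change after chronic L-DOPA was 1.97 ± 0.23 (SE, adjusted p = 0.000283 in edgeR), and its level in the chronic lesioned group, 0.696 CPM per kb, was far under the 41.0 CPM per kb of *Inhba*. AK045681, a spliced transcript of the same gene that also spans the first part of *Inhba*, moved the other way, by -0.58 ± 0.11 in the acute comparison (adjusted p = 0.00628) and -0.89 ± 0.14 in the chronic one (adjusted p = 0.00256). Which strand the intronic reads came from was not tested. Downstream of *Inhba* on the plus strand, 1608 bases behind its end, the transcript AK035610 of 9530076L18 (chr13:16120653-16123187) stood at 1.54 to 2.23 CPM in the other 3 groups and at 75.5 ± 13.0 CPM in the chronic lesioned group (SD, n = 3). Per length that was 29.8 CPM per kb, close in scale to *Inhba*, and AK166199, which overlaps it, stood at 28.8.

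*Inhba* was low in 3 groups and high in 1. Its level was 0.946, 0.950 and 1.18 CPM in the acute unlesioned libraries and 1.78, 1.46 and 1.31 CPM in the acute lesioned ones. The chronic unlesioned libraries held 1.11, 0.993 and 1.38 CPM and the chronic lesioned ones 65.4, 69.5 and 53.2 CPM. The chronic lesioned libraries stood far above the other 9, and the acute lesioned libraries also lay above all acute unlesioned ones, without overlap. The fitted log2 difference of lesioned from unlesioned striatum was 0.58 ± 0.14 (SE) in the acute and 5.74 ± 0.16 in the chronic groups. The ratios of the mean levels were 1.48 and 53.9. *Inhba* was chosen for this pattern, so these values are a description and no test is attached to them. In bulk tissue such as this, fewer cells of a type and less RNA per cell cannot be told apart, here or in any result that follows.

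**Figure D2:**
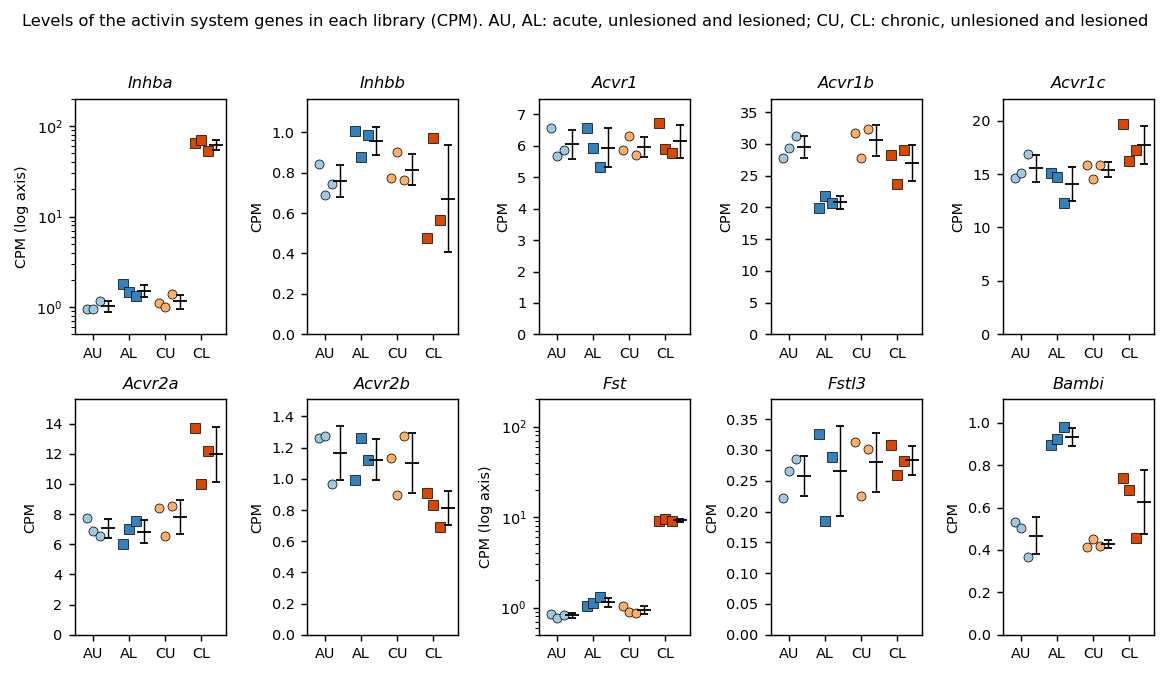
Level of each of the 10 members in every library, in CPM (log axis for *Inhba* and *Fst*, axis from 0 for the others), with 1 point per library and the group mean ± SD beside it (n = 3; AU and AL are the acute, CU and CL the chronic unlesioned and lesioned groups). The chronic lesioned libraries stand apart in *Inhba* (53.2 to 69.5 CPM) and *Fst* (8.94 to 9.60 CPM), while *Acvr1* and *Fstl3* overlap in all 4 groups.

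Per kb of transcript, the order of the members differed between groups. In the acute unlesioned group *Acvr1b*, the type I receptor of activin A, led at 6.74 CPM per kb, followed by *Acvr1* at 1.83, *Acvr1c* at 1.69 and *Acvr2a* at 1.24. *Inhba* came next at 0.670, above *Acvr2b* at 0.397, *Fst* at 0.313, *Inhbb* at 0.178, *Fstl3* at 0.132 and *Bambi* at 0.0927. *Acvr1* and *Acvr1c* did not differ beyond their spread in that order. In the chronic lesioned group *Inhba* led at 41.0 ± 5.56 CPM per kb (SD, n = 3), ahead of *Acvr1b* at 6.17, and *Fst* had moved to the third place at 3.53 ± 0.131. *Acvr2a* followed at 2.10, *Acvr1c* at 1.93 and *Acvr1* at 1.86, which did not differ beyond their spread, and the remaining members stayed under 0.3 CPM per kb.

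Of the 9 members other than *Inhba*, 3 were called at an adjusted p under 0.05 in the acute comparison of lesioned with unlesioned striatum, where 12.9% of all 129674 transcripts tested were called. *Fst* and *Bambi* were higher and *Acvr1b* was lower, beside 6.85% of transcripts higher and 6.02% lower. In the chronic comparison 2 were called, *Fst* and *Acvr2a*, both higher, against 12.0% of transcripts (7.71% higher, 4.33% lower). Between the lesioned groups 5 were called, with *Fst*, *Acvr2a*, *Acvr1b* and *Acvr1c* higher and *Bambi* lower after chronic than after acute L-DOPA, against 23.3% of transcripts (12.1% higher, 11.2% lower). Between the unlesioned groups none was called in edgeR, none had an unadjusted p under 0.05 and DESeq2 called none, against 2.61% of transcripts. The difference of the lesion effects, chronic minus acute, was called for *Fst* and *Acvr2a*, both higher, against 4.52% of transcripts (3.22% higher, 1.30% lower). With the replicate number as a block, 3 members were called in the acute comparison, 3 in the chronic one and 3 for the difference, against 21.8, 21.6 and 12.1% of transcripts. The median log2 fold change of the 9 members was -0.02, 0.04, 0.05, 0.05 and 0.06 in these 5 comparisons, beside 0.01, -0.02, -0.01, 0.00 and -0.02 over all transcripts tested. The members thus did not move as a block, and the calls rested on single genes. The comparisons share libraries, so they are not independent of each other.

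**Figure D3:**
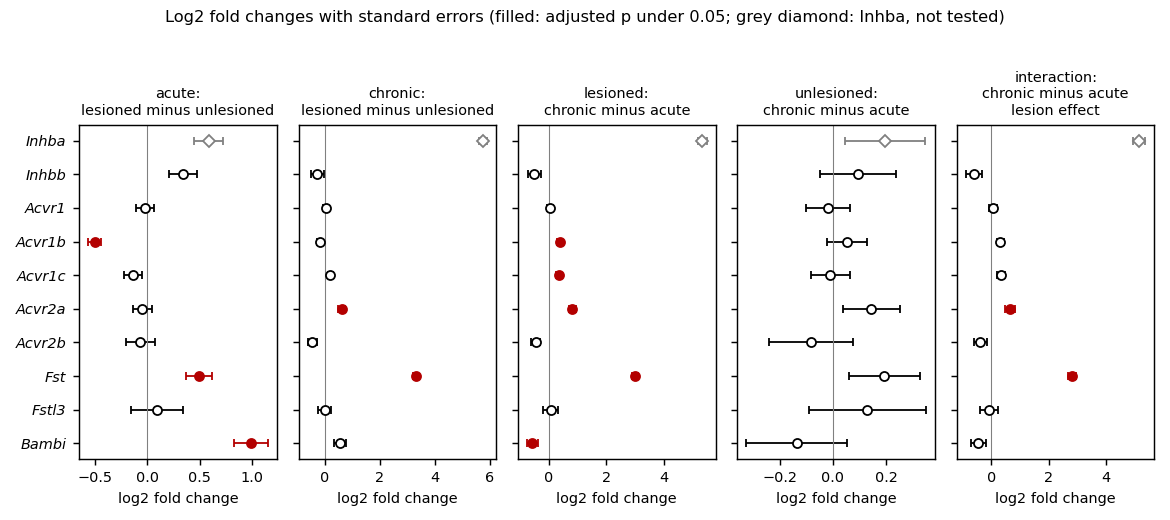
Fitted log2 fold changes of the 10 members with standard errors in the 4 comparisons of groups (6 libraries each) and in the difference of the lesion effects (12 libraries), with filled points where the adjusted p was under 0.05 and *Inhba* in grey, untested. *Inhba* and *Fst* lie at 5.74 and 3.30 in the chronic comparison, and the other 8 members stay under 1 in size in every comparison.

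The second beta subunit gene did not follow *Inhba*. *Inhbb* (chr1:121312042-121318825, minus strand) stood at 0.843, 0.691 and 0.742 CPM in the acute unlesioned and at 1.01, 0.879 and 0.988 CPM in the acute lesioned libraries. The chronic unlesioned libraries held 0.774, 0.902 and 0.766 CPM and the chronic lesioned ones 0.478, 0.971 and 0.565 CPM. The last group was split, with replicate 2 above all chronic unlesioned libraries and the other two below them. The log2 fold change was 0.34 ± 0.13 in the acute comparison (SE, adjusted p = 0.112) and -0.26 ± 0.24 in the chronic one (adjusted p = 0.550), with a 95% interval of -0.74 to 0.21 for the latter. Without chronic lesioned replicate 2, the difference between the lesioned groups was -0.87 (adjusted p = 0.00372) instead of -0.50 (adjusted p = 0.136), and the lesion effects differed by -0.96 (adjusted p = 0.0153) instead of -0.60 (adjusted p = 0.268). Per kb, *Inhba* stood at 3.07 to 5.03 times the level of *Inhbb* in the 9 libraries of the other groups and at 380, 199 and 262 times in the chronic lesioned libraries. *Inhba* made up 75.4 to 83.4% of the summed level of both subunits in the former and 99.5 to 99.7% in the latter.

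The remaining ligand genes were low or showed no called difference. *Inha*, whose product pairs with a beta subunit to form inhibin, an activin antagonist, stood at 3.80 ± 0.460 CPM in the acute unlesioned, 4.14 ± 1.04 in the acute lesioned, 2.78 ± 0.454 in the chronic unlesioned and 3.44 ± 0.847 in the chronic lesioned group (SD, n = 3). Its log2 fold change in the chronic comparison was 0.31 ± 0.18 (SE, adjusted p = 0.310). Among the other ligands that use the activin type II receptors, *Gdf1* lay at 19.3 to 22.9 CPM and *Gdf11* at 2.34 to 2.86 CPM by group mean, and neither was called in any comparison. The reads of *Gdf1* are shared with *Lass1*, which is encoded on the same transcript, so its values are uncertain. *Inhbc*, *Inhbe* and *Gdf3* had at most 1 count in any library, and *Mstn* had 2 to 7.

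*Fst*, which encodes follistatin, rose in the lesioned striatum in both comparisons, and by more after chronic L-DOPA. Its leading transcript AK083556 lies at chr13:115242498-115248938 on the minus strand. It stood at 0.854, 0.763 and 0.832 CPM in the acute unlesioned libraries and at 1.04, 1.12 and 1.30 CPM in the acute lesioned ones. The chronic unlesioned libraries held 1.05, 0.885 and 0.880 CPM and the chronic lesioned ones 8.94, 9.60 and 9.12 CPM. In neither comparison did lesioned and unlesioned libraries overlap, and the chronic lesioned group was tight, with a mean of 9.22 ± 0.342 CPM (SD, n = 3). The log2 fold change was 0.49 ± 0.13 after acute L-DOPA (SE, adjusted p = 0.0251 in edgeR) and 3.30 ± 0.11 after chronic L-DOPA (adjusted p = 2.29e-08), a 9.86-fold difference. Between the lesioned groups it was 3.00 ± 0.10 (adjusted p = 6.9e-08), and the lesion effects differed by 2.81 ± 0.15 (adjusted p = 1.05e-07). All 6 *Fst* transcripts gave a chronic log2 fold change of 3.17 to 3.43 and were called. The chronic call held without any library in turn, with 3.25 to 3.38. The acute call did not: it was lost on leaving out any of 5 of the 6 libraries (adjusted p = 0.0558 to 0.0934), all but acute lesioned replicate 1, and 2 of the 6 transcripts were called in the acute comparison.

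*Fst* rose less than *Inhba*. Per kb, *Inhba* stood at 1.73 to 2.93 times the level of *Fst* in the 9 other libraries and at 12.5, 12.4 and 9.96 times in the chronic lesioned ones. The latter 3 libraries lay above all others, with a mean ratio of 11.6 ± 1.43 (SD, n = 3). The ratio contains *Inhba*, for which the set was chosen, and is given without a test.

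**Figure D4:**
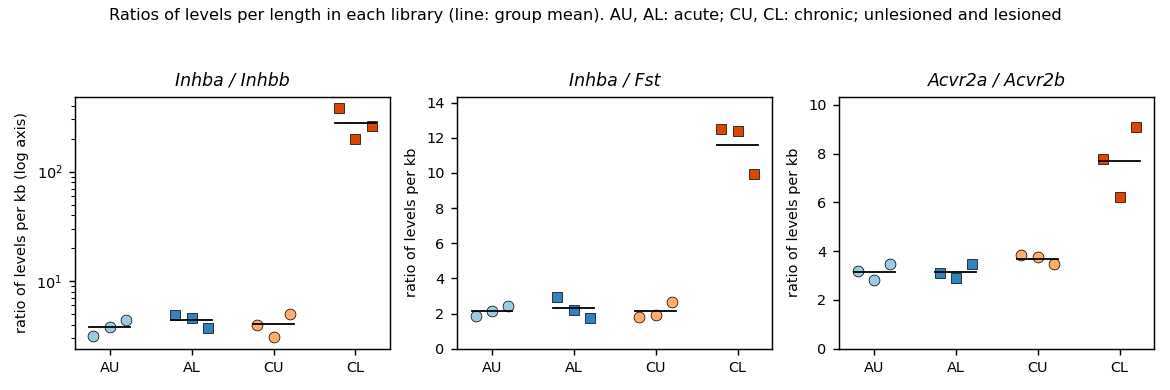
Ratios of levels per kb between members in every library, with a line at the group mean, for *Inhba* over *Inhbb* (log axis), *Inhba* over *Fst* and *Acvr2a* over *Acvr2b* (axes from 0). In each ratio the 3 chronic lesioned libraries lie above the other 9.

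The follistatin relative *Fstl3* (chr10:79240019-79245375, plus strand) was near the lower end of the range that could be tested, at 0.185 to 0.326 CPM or 16 to 45 counts per library. All 4 groups overlapped. Its log2 fold change was 0.09 ± 0.25 in the acute comparison (SE, adjusted p = 0.845) and 0.01 ± 0.23 in the chronic one (adjusted p = 0.986), where the 95% interval of -0.45 to 0.47 leaves no room for a change of the size seen in *Fst*. It overlaps *Prssl1* on the opposite strand over 1157 bases, at 0.294 CPM, so reads of the pair may be mixed.

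*Bambi*, on the plus strand of chromosome 18, rose after acute L-DOPA. It stood at 0.530, 0.504 and 0.367 CPM in the acute unlesioned libraries and at 0.894, 0.925 and 0.978 CPM in the acute lesioned ones, a 1.98-fold difference (log2 fold change 0.99 ± 0.16, SE, adjusted p = 0.00189 in edgeR). After chronic L-DOPA the levels were 0.414, 0.451 and 0.417 CPM in the unlesioned and 0.740, 0.684 and 0.456 CPM in the lesioned libraries. These groups did not overlap, but the difference of 0.55 ± 0.21 missed the threshold (adjusted p = 0.135). The acute call held without each library in turn and in all 4 *Bambi* transcripts. *Bambi* was lower in the chronic than in the acute lesioned group, by -0.58 ± 0.19 (adjusted p = 0.0443), a call lost without acute lesioned replicate 1, 2 or 3 or chronic lesioned replicate 3 (adjusted p up to 0.135). The test of the difference between the lesion effects gave -0.44 ± 0.26 (adjusted p = 0.393).

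Of the type II receptors, which bind the ligand, *Acvr2a* rose and *Acvr2b* did not. *Acvr2a* (chr2:48669629-48758784, plus strand) stood at 7.74, 6.91 and 6.53 CPM in the acute unlesioned and at 5.99, 7.02 and 7.51 CPM in the acute lesioned libraries. The chronic unlesioned libraries held 8.37, 6.52 and 8.55 CPM and the chronic lesioned ones 13.7, 10.0 and 12.2 CPM. The chronic lesioned libraries lay above all other 9, and the acute groups overlapped. The log2 fold change was -0.05 ± 0.09 in the acute comparison (SE, adjusted p = 0.783) and 0.61 ± 0.13 in the chronic one (adjusted p = 0.0136). Between the lesioned groups it was 0.81 ± 0.12 (adjusted p = 0.00117), and the lesion effects differed by 0.66 ± 0.18 (adjusted p = 0.0492). The chronic call was lost without chronic lesioned replicate 1 (0.51, adjusted p = 0.0565) or 3 (0.61, adjusted p = 0.0561). The call on the difference of the lesion effects was lost on leaving out any of 9 of the 12 libraries (adjusted p = 0.0615 to 0.129), all but acute lesioned replicate 3, chronic unlesioned replicate 3 and chronic lesioned replicate 2, while with the replicate number as a block its adjusted p was 0.0042.

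The 3′ end of *Acvr2a* overlaps *Orc4*, a replication factor gene on the opposite strand, over up to 511 bases. The shorter transcript AK041246 ends before *Orc4* at 48757683. It had group means of 5.32, 4.96, 6.15 and 9.50 CPM in the order acute unlesioned, acute lesioned, chronic unlesioned and chronic lesioned. Its chronic log2 fold change was 0.63 (adjusted p = 0.0161), and its lesion effects differed by 0.73 (adjusted p = 0.0351). AK141435, which also ends before *Orc4*, gave 0.60 (adjusted p = 0.0186) and 0.57 (adjusted p = 0.112). All 8 *Acvr2a* transcripts had a chronic log2 fold change of 0.60 to 0.66, and 6 were called. For the difference of the lesion effects they gave 0.52 to 0.84, and 4 were called.

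*Acvr2b* (AK137432, chr9:119336654-119344113, plus strand) had lower levels, at 1.26, 1.27 and 0.967 CPM in the acute unlesioned and 0.993, 1.26 and 1.12 CPM in the acute lesioned libraries. It stood at 1.13, 0.893 and 1.28 CPM in the chronic unlesioned and at 0.911, 0.832 and 0.693 CPM in the chronic lesioned libraries. The chronic lesioned values were low but overlapped the unlesioned ones, and the log2 fold change of -0.45 ± 0.18 was not called (SE, adjusted p = 0.135). Between the lesioned groups, which did not overlap, it was -0.47 ± 0.16 (adjusted p = 0.0529). AK137432 had the largest change of the 4 *Acvr2b* transcripts in both comparisons. They ranged from -0.45 to -0.19 in the chronic comparison and from -0.47 to -0.24 between the lesioned groups, and none was called. Per kb, *Acvr2a* stood at 2.81 to 3.82 times the level of *Acvr2b* in the 9 other libraries and at 7.78, 6.23 and 9.08 times in the chronic lesioned ones.

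The type I receptors carry the signal to the Smads. *Acvr1b* (AK154578, chr15:101004535-101044109, plus strand) fell after acute L-DOPA, from 27.8, 29.3 and 31.3 CPM in the unlesioned to 19.8, 21.8 and 20.7 CPM in the lesioned libraries. The groups were clearly apart, with a log2 fold change of -0.50 ± 0.06 (SE, adjusted p = 0.000338) that was called without each library in turn and in all 4 *Acvr1b* transcripts. After chronic L-DOPA the unlesioned libraries held 31.7, 27.8 and 32.3 CPM and the lesioned ones 28.2, 23.7 and 29.0 CPM, which overlap. The difference of -0.18 ± 0.10 had an adjusted p of 0.284, and of 0.0482 with the replicate number as a block. Between the lesioned groups *Acvr1b* was higher after chronic L-DOPA by 0.38 ± 0.09 (adjusted p = 0.0124), a call lost without acute lesioned replicate 1 (adjusted p = 0.0504) or chronic lesioned replicate 1 (adjusted p = 0.0559). The difference of the lesion effects was 0.32 ± 0.12, with an adjusted p of 0.156, of 0.0158 with the block and of 0.0317 without chronic lesioned replicate 2.

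*Acvr1c*, whose product ALK7 receives activin B and nodal, lies at chr2:58119864-58210306 on the minus strand. It stood at 14.6, 15.1 and 16.9 CPM in the acute unlesioned, 15.1, 14.8 and 12.3 in the acute lesioned, 15.9, 14.6 and 15.8 in the chronic unlesioned and 19.7, 16.3 and 17.3 in the chronic lesioned libraries. The lesioned groups did not overlap, and a difference was called between them, 0.33 ± 0.10 (SE, adjusted p = 0.0341). This call was lost without acute lesioned replicate 2 or 3 or chronic lesioned replicate 1 or 3 (adjusted p = 0.0656 to 0.140). The chronic groups did not overlap either, but their difference of 0.20 ± 0.09 was not called (adjusted p = 0.185). With the trend of GC content and length removed, that difference was 0.34 and was called (adjusted p = 0.0178). *Acvr1* (chr2:58298849-58419239, minus strand), which encodes ALK2, a type I receptor mainly of bone morphogenetic proteins, was level, with 5.34 to 6.74 CPM in all 12 libraries. Its chronic log2 fold change was 0.04 ± 0.09 (adjusted p = 0.834), with a 95% interval of -0.14 to 0.22.

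The genes around the activin system were described through 8 lists with 56 genes of ligands, receptors, Smads, regulators, antagonists, processing enzymes and targets of the wider TGF-beta family. Of these, 51 could be tested in the acute and 50 in the chronic comparison. After acute L-DOPA 12 were higher and 4 lower in the lesioned striatum, 31.4% of those tested, and after chronic L-DOPA 13 were higher and 3 lower, 32.0%. With a single transcript per gene, 15.4 and 13.5% of all genes tested were called in these comparisons. Between the lesioned groups 12 were higher and 6 lower after chronic L-DOPA, 36.0% of the 50 tested, against 24.8% of genes. Between the unlesioned groups 1 of 51 was called, *Tgfb2*, and the lesion effects were called different for 6 of 50, of which 5 had the higher lesion effect after chronic L-DOPA, against 5.10% of genes. The median log2 fold change over the lists was 0.12 in the acute and 0.14 in the chronic comparison, beside 0.01 and -0.02 over all transcripts. With the replicate number as a block the calls numbered 23, 21 and 13 in the acute and chronic comparisons and in their difference, where the block called 21.8, 21.6 and 12.1% of all transcripts.

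Among the 7 TGF-beta and bone morphogenetic protein ligands, *Tgfb1* and *Tgfb3* moved most. *Tgfb1*, the main TGF-beta of injured and inflamed tissue, stood at 0.820, 1.14 and 0.880 CPM in the chronic unlesioned and at 7.30, 7.15 and 7.53 CPM in the chronic lesioned libraries. The log2 fold change of 2.95 ± 0.12 (SE) compares with 0.49 after acute L-DOPA (adjusted p = 0.0160), and the effects differed by 2.47 (adjusted p = 4.19e-07). *Tgfb3* stood at 2.18, 2.01 and 2.57 CPM in the chronic unlesioned libraries and at 10.3 ± 0.631 CPM in the chronic lesioned group (SD, n = 3), a log2 fold change of 2.18 ± 0.11, and its lesion effects differed by 1.78 (adjusted p = 1.1e-06). It overlaps AK006726 of *Ttll5* on the opposite strand, at 1.36 CPM over all libraries. *Bmp2* fell after acute L-DOPA by -0.45 (adjusted p = 0.0224), and *Bmp7* fell after chronic L-DOPA by -0.86 ± 0.16 (adjusted p = 0.00528). For both genes a difference of the lesion effects was called, but it was lost without acute unlesioned replicate 1 or 2, acute lesioned replicate 1 or 3 or chronic lesioned replicate 3, with adjusted p up to 0.0583 for *Bmp2* and 0.0650 for *Bmp7*. *Tgfb2*, higher after acute L-DOPA by 0.44 (adjusted p = 0.0230), was the gene that differed between the unlesioned groups, by 0.63 (adjusted p = 0.0310), a call lost without any of 5 of the 6 libraries, all but chronic unlesioned replicate 2 (adjusted p up to 0.125). Of the 4 acute calls of this list, 3 were lost without single libraries. That of *Tgfb1* was lost without acute unlesioned replicate 1 or 2 or acute lesioned replicate 1 (adjusted p up to 0.0678), that of *Bmp2* without acute unlesioned replicate 1 or 2 or acute lesioned replicate 3 (up to 0.0795) and that of *Tgfb2* without acute unlesioned replicate 2 or 3 or acute lesioned replicate 2 or 3 (up to 0.0838). The acute call of *Tgfb3* and the chronic calls of *Tgfb1*, *Tgfb3* and *Bmp7* held without each library in turn.

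Downstream, the transmembrane protein gene *Pmepa1*, a Smad target that damps Smad signalling, stood at 25.7, 24.1 and 30.4 CPM in the chronic unlesioned and at 75.1, 70.6 and 82.0 CPM in the chronic lesioned libraries. Its chronic log2 fold change was 1.51 ± 0.10 (SE), the acute groups overlapped, and the lesion effects differed by 1.55 (adjusted p = 9.13e-06). *Skil*, a Smad corepressor, rose in both comparisons, by 0.91 and by 1.32 ± 0.12, from 25.7 to 64.3 CPM by group mean in the latter. Among the 8 Smad genes *Smad7*, an inhibitory Smad, rose in both comparisons, by 0.47 and 0.72, *Smad1* rose after chronic L-DOPA by 0.55 and *Smad3* fell after acute L-DOPA by 0.31. *Smad6*, the other inhibitory Smad, was low and not called, with 0.12 ± 0.27 after acute (SE, adjusted p = 0.811) and -0.09 ± 0.22 after chronic L-DOPA (adjusted p = 0.845). *Smad2* was not called, with -0.17 ± 0.07 after acute (adjusted p = 0.135) and -0.06 ± 0.09 after chronic L-DOPA (adjusted p = 0.766). Of the 10 other receptor genes, *Tgfbr1*, *Tgfbr2* and *Eng* rose after acute L-DOPA, by 0.30 to 0.38, and *Tgfbr1* and *Tgfbr3* after chronic L-DOPA, by 0.83 and 0.63. The acute receptor calls were lost without single libraries: *Tgfbr1* without acute unlesioned replicate 1 or 3 or acute lesioned replicate 1 (adjusted p up to 0.104), *Tgfbr2* without acute unlesioned replicate 1 or 3 or acute lesioned replicate 1 or 3 (up to 0.0915) and *Eng* without any library but acute lesioned replicate 3 (up to 0.124). No Smad and no such receptor was called for the difference of the lesion effects in edgeR without the block.

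**Figure D5:**
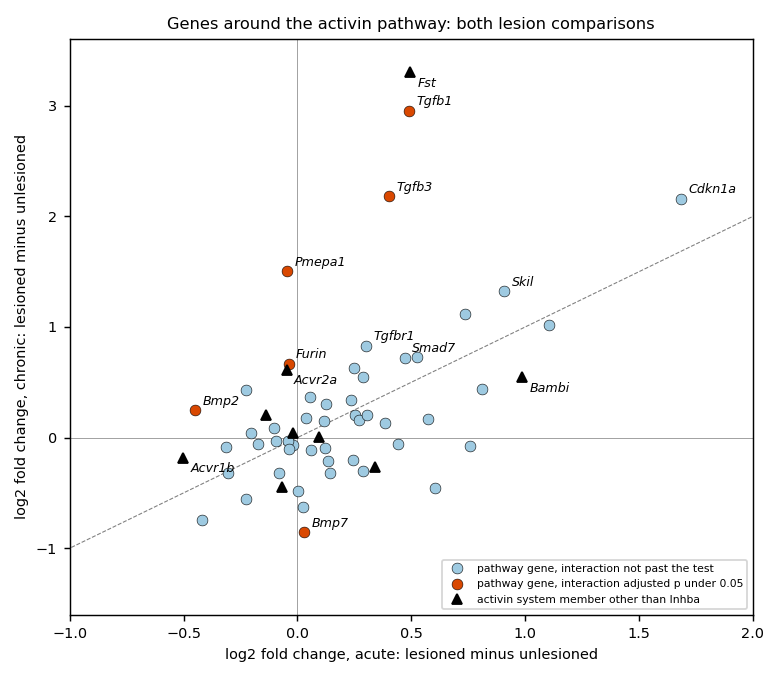
Fitted log2 fold changes of the genes of the 8 lists in the acute comparison (horizontal axis) and the chronic comparison (vertical axis) of lesioned with unlesioned striatum, with 1 point per gene, triangles for members other than *Inhba*, red points for genes whose lesion effects differed and a dashed line where both changes are equal. *Fst* (0.49 and 3.30), *Tgfb1* (0.49 and 2.95) and *Tgfb3* (0.40 and 2.18) lie farthest above that line.

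*Furin*, a convertase that cleaves activin and TGF-beta precursors, was the member of the 4 convertases called in the chronic comparison. It stood at 5.43, 6.24 and 5.91 CPM in the chronic unlesioned and at 10.0, 8.48 and 9.41 CPM in the chronic lesioned libraries, a log2 fold change of 0.67 ± 0.09 (SE, adjusted p = 0.00111), and its lesion effects differed by 0.71 (adjusted p = 0.00366). Among known targets of the pathway, *Cdkn1a* and *Col1a1* rose in both comparisons. *Id1*, better known as a target of the bone morphogenetic protein branch, rose in the acute one. The acute call of *Col1a1* was lost without acute unlesioned replicate 1 or 3 or acute lesioned replicate 1 or 3 (adjusted p up to 0.101). *Cdkn1a*, which encodes a cell cycle inhibitor, rose by 1.69 after acute and by 2.16 after chronic L-DOPA, and neither *Cdkn1a* nor *Col1a1* was called for the difference.

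*Inhba* belongs to a set of activity-regulated genes that are known to act in neuronal survival. The other 8 genes of that list are not independent evidence here, since the list was drawn up with earlier results of these data known. *Atf3*, *Btg2*, *Gadd45b*, *Gadd45g*, *Npas4* and *Nr4a1* were each called higher in the lesioned striatum after acute and after chronic L-DOPA, where a single transcript per gene gave 15.4 and 13.5% of all genes called. Between the lesioned groups *Gadd45b* and *Serpinb2* were called higher and *Atf3* and *Npas4* lower after chronic L-DOPA, against 24.8% of genes. Between the unlesioned groups *Atf3*, *Btg2*, *Gadd45g* and *Nr4a1* were called lower after chronic L-DOPA, against 2.61% of transcripts. The unlesioned calls of *Atf3*, *Btg2* and *Nr4a1* were lost without some single libraries (adjusted p up to 0.103). The acute log2 fold change was 4.73 for *Atf3*, 3.64 for *Btg2* and 2.90 for *Npas4*. *Inhba*, with 0.58 after acute L-DOPA, did not share the size of that acute response. *Serpinb2* did not either: it had 0 to 3 counts in the 9 other libraries and 236, 689 and 211 counts in the chronic lesioned ones, so it could be tested only where that group took part. *Gadd45b* was called for the difference of the lesion effects, at 0.76 (adjusted p = 0.0214), which was lost without acute unlesioned replicate 3, acute lesioned replicate 2 or 3 or chronic lesioned replicate 1 or 3 (adjusted p up to 0.0660).

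Over the 12 libraries, the genes whose log2(CPM + 0.1) was most like that of *Inhba*, among 12791 genes that averaged 1 CPM or more and lie over 50 kb from it, were *Tomm70a*, *Fst*, *Bach1*, *Rab11fip4* and *Rara*, with Pearson correlations of 0.994, 0.993, 0.992, 0.990 and 0.990. These correlations are set by the 3 chronic lesioned libraries, are given as a description and carry no test. Within the other 9 libraries they were 0.915, 0.573, 0.609, 0.532 and 0.876. *Tomm70a*, a mitochondrial import receptor gene, stood at 92.1, 106, 100 and 307 CPM in the order of groups above, and *Rara*, the retinoic acid receptor alpha gene, at 0.862, 1.25, 0.947 and 5.30 CPM. *Tgfb1*, *Tgfb3* and *Pmepa1* ranked 17, 33 and 38.

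Several cell type marker lists differed between the groups without overlap. The 4 markers of D1 spiny neurons summed to 145 to 156 CPM in the acute unlesioned and 122 to 134 CPM in the acute lesioned libraries, and to 142 to 183 and 281 to 326 CPM in the chronic ones. The 4 markers of D2 spiny neurons were higher in the lesioned libraries in both cases, at 505 to 595 against 864 to 935 CPM and at 500 to 535 against 790 to 1055 CPM. The 5 markers of all spiny neurons were lower in the acute lesioned libraries, at 1295 to 1565 against 1087 to 1195 CPM, and overlapped in the chronic groups, at 1277 to 1387 and 981 to 1327 CPM. The D1 receptor gene itself, *Drd1a*, stood at 62.5 to 76.0 CPM in the 6 unlesioned libraries, at 11.2 to 15.0 CPM in the acute and at 22.1 to 32.7 CPM in the chronic lesioned ones. The 5 astrocyte markers were higher in the lesioned libraries, at 155 to 171 against 191 to 236 CPM in the acute and 131 to 147 against 166 to 217 CPM in the chronic groups. The 6 microglial markers stood at 50.5 to 53.2 and 54.0 to 64.0 CPM in the acute unlesioned and lesioned libraries and overlapped in the chronic ones, at 35.2 to 47.5 and 36.0 to 46.7 CPM. The 4 dopamine neuron markers were at 4.47 to 4.66 and 4.04 to 4.45 CPM in the acute and at 5.35 to 8.27 and 12.3 to 15.4 CPM in the chronic unlesioned and lesioned libraries. In the chronic groups *Th*, which encodes tyrosine hydroxylase, alone carried that difference, at 1.77 to 1.95 and 8.30 to 10.9 CPM, while the other 3 markers overlapped, at 3.55 to 6.50 and 3.28 to 5.74 CPM. The lesioned groups also differed without overlap in the 5 oligodendrocyte markers, at 2003 to 3337 CPM after acute and at 1101 to 1987 CPM after chronic L-DOPA, and in the 5 blood markers, at 5.31 to 10.5 and 1.87 to 3.65 CPM. The part of these markers in the changes of *Inhba*, *Fst*, *Acvr2a*, *Acvr1b*, *Acvr1c* and *Bambi* was not tested.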

How the data were processed

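RNA of 12 striatal samples (3 per group) was sequenced by the authors on a Genome Analyzer II from TruSeq libraries made from 0.5 µg RNA. The authors mapped the reads to mm9 and deposited raw counts per transcript of the Genomatix list (189660 transcripts); strand and multiple hits are not given in the sources used here. The submitters' processing notes also name DESeq. Deposited comparison tables hold the authors' fold changes and p-values and were not used, nor were 48 columns of per-sample values. Rows without a symbol (296) held 0.0485% of counts.

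Counts were fitted per comparison on 6 libraries, and the interaction on 12, with edgeR 4.0.16 (R 4.3.3; filterByExpr, TMM, quasi-likelihood test, Benjamini-Hochberg adjustment over all transcripts tested, adjusted p under 0.05). Levels are CPM on TMM-scaled totals, and standard errors are the log2 fold change over the root of F. DESeq2 1.42.0 and the other settings named in the closing section were alternatives; trend removal by GC content and length was chosen after seeing the data. On simulated chronic data, edgeR recovered 88 of 100 transcripts changed by log2 1 and 100 of 100 changed by log2 2 among 126074, with 6 false calls. For the difference of the lesion effects it recovered 41 of 100 and 100 of 100 among 129678, with 9 false calls. The simulation used a fixed dispersion and changed no transcripts of low count, so its rates may not hold for those.

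Members, gene lists and named genes (all members; transcripts at the *Inhba* locus; from each list and comparison up to 3 called genes of largest change; the 5 genes most like *Inhba*; others named for context) were chosen with earlier results of these data known. Same-numbered lesioned and unlesioned libraries deviated together (correlations over 12794 genes of 0.472, 0.465 and 0.385 for acute, 0.515, 0.572 and 0.159 for chronic). Differently numbered ones reached at most -0.127 for acute and 0.153 for chronic. The numbers thus mark sides that varied together, except that chronic replicate 3 was not set apart. Whether they are sides of the same mouse was not tested. The study's text uses the unlesioned side as a control within each mouse, while the labels count 12 mice, so p-values measure the spread between these samples. No replicates were copies (chi-square per degree of freedom 5.04 to 18.0). Some list genes are not reported here by name.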

Additional observations from a re-analysis of the deposited data

Results flagged for a closer look

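The lesion effect differed between chronic and acute L-DOPA, by a test of the difference in edgeR, for 2 members: *Fst* by 2.81 and *Acvr2a* by 0.66 on the log2 scale. It also differed for 6 genes of the 8 lists, namely *Tgfb1* by 2.47, *Tgfb3* by 1.78, *Pmepa1* by 1.55, *Furin* by 0.71, *Bmp2* by 0.70 and *Bmp7* by -0.88. It further differed by 0.76 for *Gadd45b*, of the separate list of activity-regulated genes, which is not independent evidence here. Of these, the values of *Acvr2a*, *Bmp2*, *Bmp7* and *Gadd45b* lost their call on leaving out some single libraries.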

How the results depend on the processing

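No result changed direction past its threshold. With the replicate number as a block, which treats same-numbered sides as pairs, 28240 transcripts were called in the acute comparison, 27506 in the chronic one and 15879 for the difference of the lesion effects. Of the members' calls in these 3 comparisons, the block changed that of *Acvr1b* alone, which was gained in the chronic comparison and for the difference. Between the chronic and acute groups the numbers mark no pairs (correlations of -0.0941, -0.148 and 0.233 for lesioned libraries), and with the same block *Bambi* had an adjusted p of 0.0641 there. At an adjusted p under 0.01, the transcripts called numbered 6708 (acute), 7079 (chronic), 12539 (lesioned), 108 (unlesioned) and 2474 (difference), and the members called 1 (chronic), 2 (lesioned) and 1 (difference). In the same order, a single transcript per gene gave 3135, 2663, 4914, 544 and 1053, the sum over a gene's transcripts 2643, 2311, 4310, 101 and 951, genes of known GC content 2572, 2153, 3993, 429 and 955, and removal of the GC and length trend, chosen after seeing the data, 3062, 2531, 4507, 719 and 1362. Fewer features were tested in each of these. The fit over all 12 libraries called 22945 in the chronic comparison, and between the unlesioned groups DESeq2 called 6278 and no filter 5821; the cause was not tested. For the difference of the lesion effects, the sum and the genes of known GC content each called 1 member, as *Acvr2a* was lost (adjusted p = 0.0665 and 0.0518). DESeq2 lost *Fst* in the acute comparison (adjusted p = 0.0554) and *Bambi* between the lesioned groups (adjusted p = 0.0745). *Bambi* was also lost there with a single transcript per gene (adjusted p = 0.0584), with the sum (0.0767) and on genes of known GC content (0.0642), and *Acvr1c* was gained in the chronic comparison on removal of the trend (0.34, adjusted p = 0.0178). Leaving out each library in turn, the transcripts called ranged from 9543 to 15329 (acute), 9137 to 14863 (chronic), 16025 to 36534 (lesioned), 66 to 14377 (unlesioned) and 3794 to 9536 (difference), and the members called from 2 to 3, 1 to 2, 3 to 6, 0 to 0 and 1 to 4. Of 500 member values under other settings, 483 stayed on their side of the threshold, 14 lost and 3 gained a call; of 360 with a library left out, these were 331, 26 and 3, and small uncalled values could change sign. Of 1251 values of list genes over all settings, 138 lost their call. Among them, the sum lost *Bmp7* for the difference of the lesion effects (adjusted p = 0.0710), *Tgfb2*, *Eng* and *Tgfbr1* in the acute comparison (0.0672, 0.0549 and 0.0692) and *Tgfb2* between the unlesioned groups (0.0767). The fit over all 12 libraries lost *Eng* (0.184) and *Tgfbr1* (0.0902) in the acute comparison, and removal of the trend lost *Eng* (0.0862). *Fstl3*, at 16 to 45 counts, is limited by depth.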
